A study of Homo sapiens with 9 samples.

Results

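The proteins of the large subunit of the mitochondrial ribosome were followed at the level of their messenger RNAs in SW620 cells. Members were the genes of the deposited count table whose symbol is MRPL followed by a number, which gave 49 of the 28307 genes listed. Of 53 rows whose symbol starts with MRPL, 4 were dropped, namely the antisense genes MRPL20-AS1 and MRPL23-AS1 and the pseudogenes MRPL42P5 and MRPL45P2. The rule that picked members used the symbols alone, but the module was chosen with earlier results of these data known. SW620 is a widely used human colon cancer cell line that was started from a lymph node metastasis, and the labels give its genotype as wild type. The cells were grown in suspension, in a medium with insulin, basic FGF and EGF, with 120 µM streptomycin (SM), with 120 µM dihydrostreptomycin (DSM) or with neither antibiotic (untreated) for 48 h. Each group held 3 libraries, numbered 1 to 3, which the submitters call biological replicates of a single cell line. DSM is streptomycin with the aldehyde of its streptose sugar reduced to an alcohol.

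The mitochondrial ribosome translates the few messenger RNAs encoded by mitochondrial DNA, all of them for subunits of the respiratory chain and ATP synthase. Its large subunit joins amino acids into protein at the peptidyl transferase center and releases the chain through an exit tunnel at the inner membrane, while its small subunit reads the messenger RNA. All of its proteins are encoded in the nucleus, made in the cytosol and imported. Streptomycin and its dihydro form bind the small subunit of bacterial ribosomes, from whose ancestors the mitochondrial ribosome descends. The comparisons therefore asked whether transcripts of the organelle's own large subunit differed in cells given either compound. Proteins numbered up to MRPL36 mostly have bacterial counterparts, and those numbered from MRPL37 were named as mitochondrial additions.

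Total counts lay between 39315662 (SM replicate 2) and 65562227 (untreated replicate 1) per library, and every member passed the filter on low counts, which left 15619 genes to test. The lowest count of any member in any library was 605, for MRPL23. Members together took 0.353% of counts in SM replicate 1 and 0.380% in SM replicate 2, with the other 7 libraries between these values. Of 10 markers of colon epithelium 7 stood at 1 CPM (read counts relative to library size, with edgeR's TMM factors) or more on average, and KRT20, CDX1 and LGALS4 stood below it. Summed markers of fibroblasts, leukocytes and endothelium did not exceed 13.8, 8.96 and 4.42 CPM in any library, against 11296 CPM or more for the epithelial list. The same-numbered libraries of different groups deviated together, and the libraries numbered 1 stood apart in all 3 groups, so values with the replicate number as a block stand beside those without it, and the difference between the numbers is described after the drugs.

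Members differed among themselves far more than across conditions. Mean levels over the 9 libraries had a median of 59.8 CPM. MRPL38, a protein of the central protuberance, averaged 217 CPM (lowest library 204, highest 231), and MRPL3, which reaches towards the peptidyl transferase center, averaged 211 CPM. Next came MRPL37 with 190 CPM, MRPL51 with 177 CPM and MRPL4 with 176 CPM. At the low end stood MRPL23 with 14.5 CPM, a protein at the mouth of the exit tunnel, then MRPL53 with 23.5, MRPL55 with 27.4, MRPL39 with 29.3 and MRPL46 with 34.7 CPM. CPM does not allow for transcript length, so genes were set against each other per kilobase of their median protein-coding transcript in GENCODE v29. On that scale MRPL51 led with 321 CPM per kb and MRPL50 was last with 10.7, a 30.0-fold range around a median of 55.8. Of the 7 highest members on that scale 5 (MRPL12, MRPL18, MRPL3, MRPL37 and MRPL51) were also among the 7 highest when the length was the union of all annotated exons, and of the 7 lowest 3 (MRPL22, MRPL23 and MRPL50) were shared, so the ends of the order depend in part on the gene model.

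**Figure D1:**
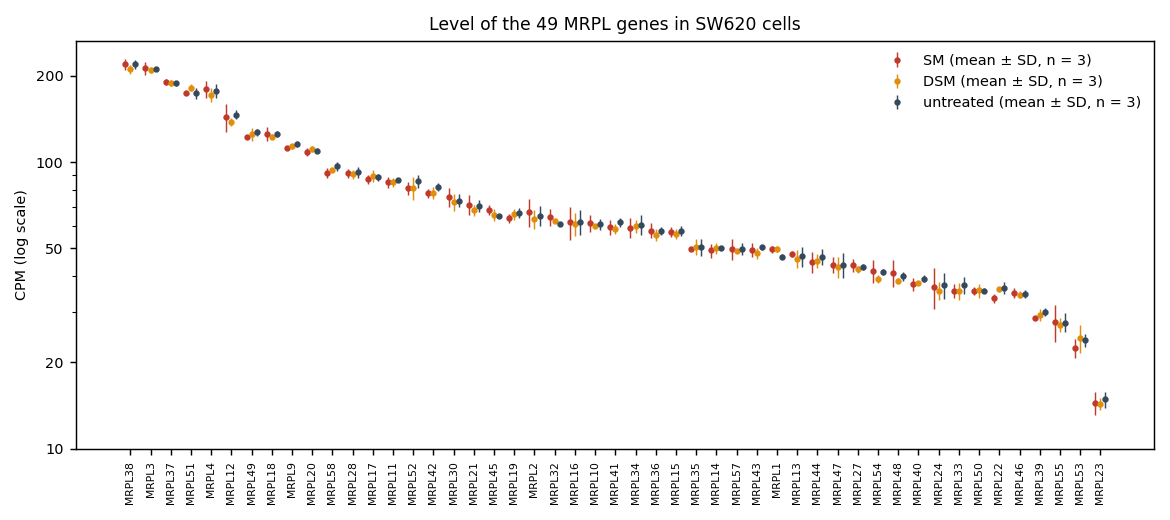
Level of each of the 49 MRPL genes on a logarithmic axis in CPM, with points for group means and bars for SD over 3 libraries in SM, DSM and untreated cells. Genes are ordered by their mean over the 9 libraries, from MRPL38 (217 CPM) to MRPL23 (14.5 CPM), and the 3 points of a gene lie close together compared with the range between genes.

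Levels within a functional site are given per kilobase of the median transcript. With the union of all annotated exons as length, some orders within a site changed. MRPL2 (29.7 CPM per kb) and MRPL27 (15.3) then stood below MRPL16 (52.0), and MRPL19 (17.0) below MRPL14 (52.0). MRPL23 (8.78) then stood below MRPL22 (10.8), and MRPL46 (21.8) and MRPL48 (13.1) below MRPL40 (27.6). In the stalk that recruits translation factors, MRPL12 stood at 139 CPM per kb, MRPL11 at 56.1 and MRPL10, the anchor of the MRPL12 copies, at 35.1. Around the peptidyl transferase center, MRPL3 stood at 134 CPM per kb, MRPL2 at 72.4, MRPL27 at 58.0 and MRPL16 at 52.0. The exit tunnel set ran from MRPL4 at 124 CPM per kb over MRPL17 (44.9), MRPL24 (41.3), MRPL45 (40.6), MRPL47 (38.7) and MRPL23 (22.6) to MRPL22 at 11.4. MRPL45 tethers the ribosome to the inner membrane, and MRPL22 lines the tunnel wall. In the central protuberance MRPL18 stood at 127 CPM per kb, MRPL38 at 115, MRPL58 at 106, MRPL46 at 34.4, MRPL48 at 33.3 and MRPL40 at 27.6. MRPL58 is a peptidyl-tRNA hydrolase that became a ribosomal protein. MRPL14 and MRPL19, which face the small subunit, stood at 52.0 and 60.8 CPM per kb.

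The 49 genes lie on 20 chromosomes. The 250 bases before the outermost listed start could be read for 42 of them in RefSeq (GRCh38.p14), and 7 (MRPL2, MRPL10, MRPL13, MRPL15, MRPL21, MRPL23 and MRPL35) are named only. For MRPL14 and MRPL36, at least, that start lay inside the annotated gene span, and matches found there are counted below. The letters CCGGAAG, a core bound by ETS-family factors such as GABPA (NRF2 in the older mitochondrial literature), were present on either strand in 14 of the 42, or 33.3%. Of all 27305 promoters of the same length 8.78% held these letters, and of the 11891 belonging to tested genes 14.96% did. AAGATGGCG, a core bound by YY1, was in 3 of 42 (7.14%), against 0.641% of all promoters and 1.08% of those of tested genes. The palindrome bound by NRF1 (GCGCA and GCGC with any base between them) was in 6 (14.3%), against 5.53% and 9.75%. CCAAT was in 11 (26.2%), against 33.0% and 34.8%, CACGTG in 5 (11.9%), against 6.46% and 8.56%, and the antioxidant response core TGACNNNGC in 3 (7.14%), against 11.1% and 12.3%. The member promoters had a median G+C content of 61.0%, against 57.6% for all promoters. G+C content was not computed for the promoters of tested genes alone. A match is only a run of letters and does not show that a factor binds.

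The ETS core and its flanks are shown for the 14 genes because it was the motif found in most member promoters. Each line reads 5′ to 3′ on the strand that holds CCGGAAG, with the core in capitals and 11 flanking bases on each side where the window before the start allowed it.
MRPL3: tgtaaaacgcaCCGGAAGtgggtccggcg
MRPL20: cgaccttcgccCCGGAAGtatcgcagggg
MRPL27: ccacgcagggcCCGGAAGtagatctcctg
MRPL30: atgaccacttcCCGGAAGcgcagcagacc
MRPL33: cgggccgtgccCCGGAAGc
MRPL38: gacgcccggctCCGGAAGtgcccgttgga
MRPL40: ggggcgcacgcCCGGAAGcggc
MRPL43: tcgtcccggaaCCGGAAGcctcgaggttt
MRPL47: ggcttgagacgCCGGAAGtgacgctatcg
MRPL48: tcattttagttCCGGAAGcttctgaaatt
MRPL51: cggtccgcctgCCGGAAGttttggagcgc
MRPL53: gcagccggcggCCGGAAGtctatcccgca
MRPL54: agtgcacgtttCCGGAAGacgtcagtggc
MRPL58: gcgagctgctaCCGGAAGagtgccccgat
In 8 of the 14 the core reads in the direction of the gene, and in 10 it lies within 100 bases of the start.

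The YY1 core is shown for MRPL32, whose protein is cleaved by a mitochondrial protease before assembly in yeast and mice, and for MRPL52, a mitochondria-specific protein. Both lie before the start, and the capitals mark AAGATGGCG.
MRPL32: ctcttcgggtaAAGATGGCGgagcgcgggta
MRPL52: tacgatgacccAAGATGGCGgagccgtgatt
Neither gene passed the test in any drug comparison described below. The YY1 core of MRPL36 lies inside the annotated span of that gene and is not printed. At least 1 of the ETS, YY1 and NRF1 cores was found in 21 of the 42 promoters.

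Across the 9 libraries members varied little. The median coefficient of variation was 4.35%, against 8.88% over all tested genes and 5.63% over the 7463 tested genes within the members' range of mean CPM. The steadiest were MRPL37 (2.00%), MRPL9 (2.27%) and MRPL20 (2.39%), and the most variable MRPL24 (10.7%) and MRPL16 (9.39%). Of the sum of squares of a member's log2 CPM, the drug group took a median of 12.4%, the replicate number 45.0% and the rest 31.3%. For tested genes of like abundance the medians were 13.0%, 60.9% and 18.4%.

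The mean log2 CPM of the 49 genes summarizes the module in each library. It was 5.92, 6.02 and 5.98 in SM replicates 1, 2 and 3, then 5.98, 5.96 and 5.95 in DSM, and 5.9802, 5.9929 and 6.0001 in untreated cells. SM replicate 1 was the lowest library and SM replicate 2, the one with the fewest counts, the highest, so the SM group spanned the other groups. Means ± SD were 5.97 ± 0.049 in SM, 5.96 ± 0.013 in DSM and 5.99 ± 0.010 in untreated cells (n = 3 each). The difference between SM and untreated cells was -0.017 on the log2 scale (95% interval from a linear model with the replicate block -0.087 to 0.053), with pair differences of -0.056, 0.029 and -0.023 for numbers 1 to 3. Without SM replicate 1 the difference between SM and untreated cells was 0.0095, and without SM replicate 2 it was -0.040, so its sign rested on 1 library. DSM and untreated cells differed by -0.027 (-0.097 to 0.043), with pair differences of -0.0022, -0.030 and -0.048, all negative. SM and DSM differed by 0.0097 (-0.060 to 0.080), with pair differences of -0.054, 0.059 and 0.024, and by -0.015 without SM replicate 2.

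**Figure D2:**
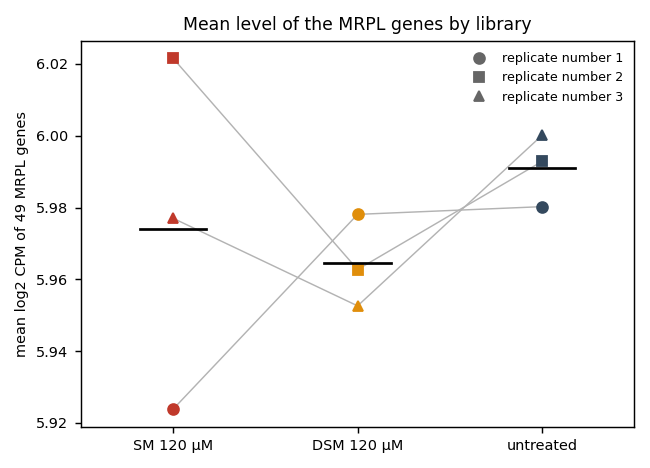
Mean log2 CPM of the 49 MRPL genes in each library of SM, DSM and untreated cells, with marker shapes for the replicate number, grey lines joining libraries of one number and black bars at the group means. SM libraries span 5.92 to 6.02 and enclose all DSM and untreated libraries, and the vertical axis covers about 0.1 log2 units.

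With SM at 120 µM for 48 h, 0 of the 49 genes passed edgeR's quasi-likelihood test at an adjusted p of 0.05, where 0.0192% of all tested genes (3 genes, all higher with SM) passed. With the replicate block 0 members passed again, and 2.74% of tested genes (428) did, 1.2% higher and 1.54% lower in SM. An unadjusted p under 0.05 was reached by 0 members without the block, where 2.34% of tested genes reached it, and by 3 with the block, where 14.8% did. DESeq2 also called 0 members, of 14 genes called without the block and 385 with it. With the block 32 of 49 fold changes were negative, with a median of -0.0096 on the log2 scale beside -0.00091 over all tested genes. They ran from -0.12 to 0.083, and all 49 intervals of 95% lay within 0.32 of 0 on the log2 scale, as did those of 98.0% of tested genes of like abundance.

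MRPL22, the tunnel-wall protein, gave the most negative SM difference. It had 34.7, 32.4 and 33.4 CPM in SM replicates 1, 2 and 3, against 38.3, 36.6 and 34.6 CPM in untreated replicates 1, 2 and 3. Every SM library was below its own untreated partner, and SM replicate 1 was just above untreated replicate 3. The means were 33.5 ± 1.19 CPM in SM and 36.5 ± 1.85 CPM in untreated cells (SD, n = 3 each), a blocked log2 fold change of -0.12 (SE 0.045, interval -0.21 to -0.027, edgeR adjusted p = 0.185). It was the only member more than 3 scaled median absolute deviations from the members' median in that comparison.

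MRPL58, the hydrolase, had 87.2, 93.4 and 93.8 CPM in SM cells, against 92.7, 98.9 and 98.7 CPM in untreated cells. It was lower in SM in all 3 pairs by like amounts, with a blocked log2 fold change of -0.082 (SE 0.034, edgeR adjusted p = 0.255), while the groups overlapped. MRPL52 averaged 80.9 ± 4.23 CPM in SM and 85.9 ± 4.68 CPM in untreated cells (SD, n = 3), a log2 fold change of -0.086 (edgeR adjusted p = 0.275). In the positive direction, MRPL1, the mobile arm that guides transfer RNA out of the ribosome, had 48.2, 49.8 and 50.7 CPM in SM cells, against 47.5, 45.6 and 47.2 CPM in untreated cells. The groups did not overlap, and the blocked log2 fold change was 0.083 (SE 0.041, edgeR adjusted p = 0.346). MRPL32 had 62.3, 69.0 and 61.0 CPM in SM cells, against 61.8, 59.8 and 60.8 CPM in untreated cells, so its positive value of 0.073 (edgeR adjusted p = 0.433) came mostly from SM replicate 2. MRPL45 averaged 68.0 ± 2.68 CPM in SM and 65.0 ± 0.839 CPM in untreated cells (SD, n = 3), with a log2 fold change of 0.065 (edgeR adjusted p = 0.459). Groups did not overlap for 3 members, MRPL1 (higher in SM) and MRPL9 and MRPL39 (lower in SM), where 6.74% of all tested genes showed such a separation (3.28% higher and 3.46% lower in SM). The sign was the same in all 3 pairs for 13 of 49 members and for 36.3% of tested genes.

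By site, 0 members passed in the stalk (3 genes), the exit tunnel (7), the peptidyl transferase set (4), the central protuberance (6) and the interface (2) in any of the drug comparisons, with or without the block. The blocked SM medians were -0.029, -0.023, 0.011, 0.0010 and -0.049 for these sets in that order. The 28 genes numbered up to 36 had a blocked SM median of -0.0098 and the 21 numbered from 37 one of -0.0074. The SM libraries also had a summed epithelial marker level of 11296 to 13537 CPM, against 11820 to 14868 CPM in untreated cells. KRT19 and VIL1, 2 of 9 tested markers, fell in the blocked fit, where 1.54% of all tested genes fell. Without the block 0 of the 9 markers passed. The part of these marker differences in the members' values was not tested.

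With DSM at the same dose and time 0 of 49 members passed edgeR's test, with and without the block, where 0% of tested genes passed in either fit and DESeq2 called 0 genes. At an unadjusted p under 0.05 there were 0 members without the block (0.659% of tested genes) and 2 with it (4.16%). In the blocked fit 39 of 49 fold changes were negative, or 79.6%, beside 50.4% over all tested genes. Their median was -0.029 on the log2 scale, beside -0.00044 over all tested genes, and they ran from -0.083 to 0.090. The 49 values come from the same libraries and are not independent of each other, and the interval of the module mean included 0. All 49 blocked intervals lay within 0.32 of 0, and without the block 48 did, MRPL24 reaching -0.33.

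MRPL1 and MRPL51 departed from the other members in the DSM comparison. MRPL1 had 49.5, 51.3 and 48.7 CPM in DSM cells, against 47.5, 45.6 and 47.2 CPM in untreated cells. All DSM libraries lay above all untreated ones, and the blocked log2 fold change was 0.090 (SE 0.041, interval 0.0060 to 0.17, edgeR adjusted p = 0.999). Its SM comparison, above, used the same untreated libraries, so the pair of positive values is not independent. MRPL51 had 187, 177 and 183 CPM in DSM cells, against 182, 167 and 175 CPM in untreated cells, higher in each pair but overlapping between groups (log2 fold change 0.064, SE 0.032, edgeR adjusted p = 0.999). Of the MRPL51 exon length 29.9% overlaps NCAPD2 on the opposite strand, and the strand setting of the counting is not given in the sources used here.

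The smallest p values among negative DSM differences belonged to MRPL52 (log2 fold change -0.078), MRPL41 (-0.071) and MRPL38 (-0.062), each with an edgeR adjusted p of 0.999. MRPL38 averaged 211 ± 7.18 CPM in DSM and 220 ± 7.96 CPM in untreated cells (SD, n = 3) and was lower in each of the 3 pairs. Among positive differences MRPL32 followed MRPL1 and MRPL51, with 0.029. MRPL12, the stalk protein, had 142, 133 and 140 CPM in DSM cells, against 143, 144 and 153 CPM in untreated cells. Its groups did not overlap, but its libraries were widely spread in SM (127, 158 and 146 CPM), and 68.2% of its exon length is shared with the readthrough gene AC139530.2 on the same strand. MRPL1 and MRPL12 were the 2 members whose DSM and untreated libraries did not overlap, where 4.42% of all tested genes showed that (2.2% higher and 2.22% lower in DSM). The same sign in all 3 pairs was seen for 16 members and for 29.5% of tested genes.

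SM against DSM, which differ at 1 group of the molecule and were given at the same dose and time, gave 0 of 49 members past edgeR's test without the block, where 0% of tested genes passed. With the block 0 members and 3.88% of tested genes (606) passed, 1.73% higher and 2.15% lower in SM. An unadjusted p under 0.05 was reached by 0 members without the block (2.54% of tested genes) and by 4 with it (16.2%). DESeq2 called 0 members, of 11 genes without the block and 510 with it. Blocked fold changes were positive for 30 members and negative for 19, with a median of 0.014, and ran from -0.12 to 0.087. All 49 intervals lay within 0.32 of 0, against 97.5% of tested genes of like abundance.

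MRPL22 had 34.7, 32.4 and 33.4 CPM in SM cells, against 35.97, 36.5 and 35.3 CPM in DSM cells. All SM libraries lay below all DSM libraries, with a blocked log2 fold change of -0.10 (SE 0.045, interval -0.19 to -0.0062, edgeR adjusted p = 0.271). MRPL51 also did not overlap, at 174, 174 and 173 CPM in SM cells, against 187, 177 and 183 CPM in DSM cells (log2 fold change -0.068, SE 0.032, edgeR adjusted p = 0.303). These were the 2 members without overlap between the compounds, where 6.56% of tested genes had none (3.41% higher and 3.16% lower in SM). MRPL53, a mitochondria-specific protein, averaged 22.4 ± 1.74 CPM in SM and 24.3 ± 2.72 CPM in DSM (SD, n = 3), with a log2 fold change of -0.12 (edgeR adjusted p = 0.288). On the positive side stood MRPL4 with 180 ± 12.4 CPM in SM and 172 ± 10.3 CPM in DSM (log2 fold change 0.066, edgeR adjusted p = 0.306), MRPL2 with a log2 fold change of 0.080 (edgeR adjusted p = 0.350) and MRPL38 with 0.061 (edgeR adjusted p = 0.381). The sign was the same in all 3 pairs for 6 members, where 32.5% of tested genes had it. No member departed from the others by more than 3 scaled deviations.

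**Figure D3:**
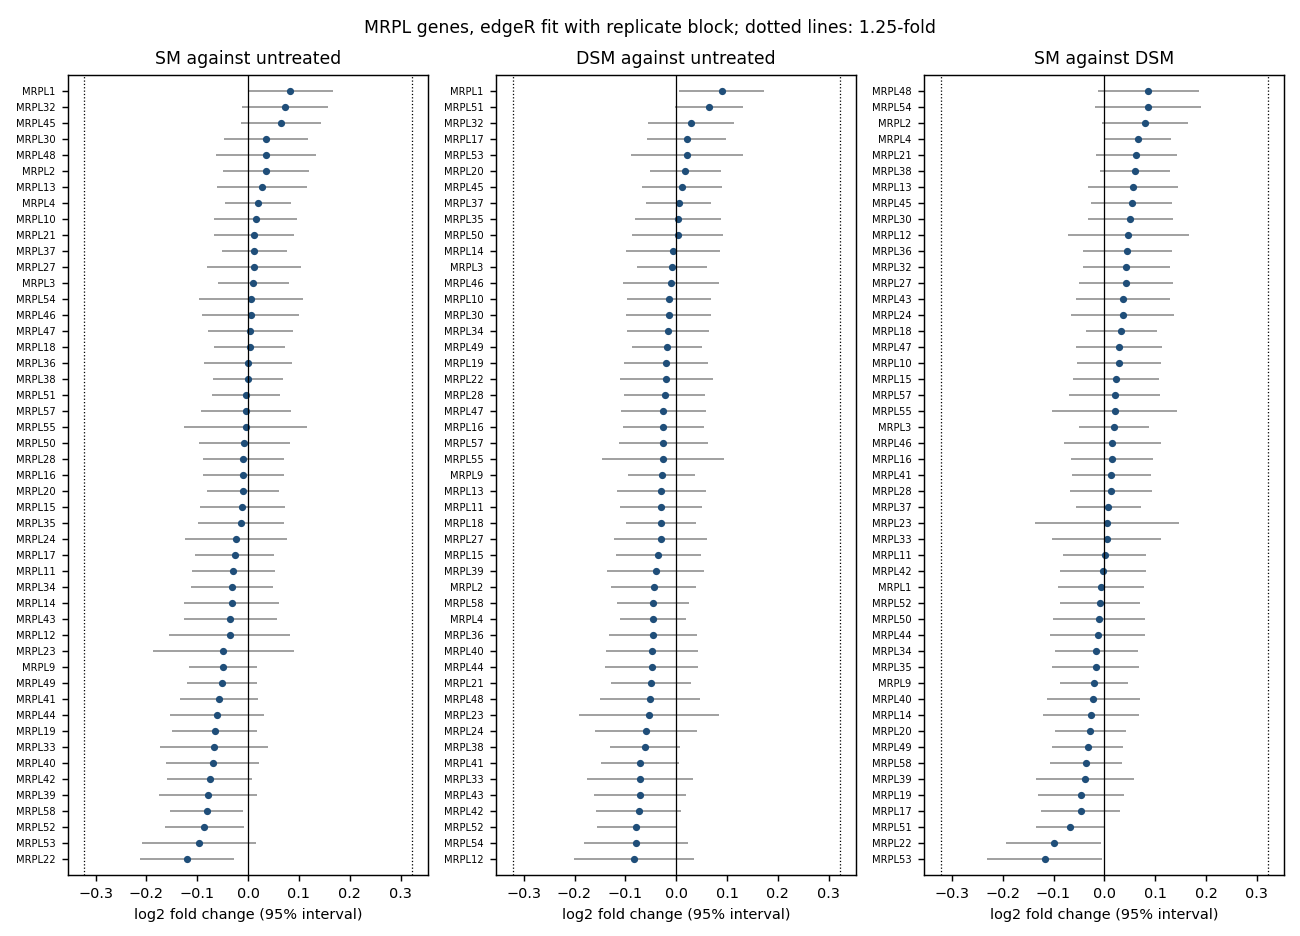
Blocked log2 fold changes of the 49 MRPL genes with 95% intervals for SM against untreated, DSM against untreated and SM against DSM cells, each panel ordered by value, with dotted lines at 0.32 log2 units on either side of 0. All intervals lie inside the dotted lines, and in the DSM panel 39 of 49 points lie left of 0.

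Among the cultures the members did differ by replicate number. The libraries numbered 1, 1 from each group, were compared with those numbered 2 and 3 in the fit with group and number, a comparison chosen with their separation already known. The labels do not say what a number shares. Of the 49 genes 18 passed (5 higher and 13 lower in libraries numbered 1), or 36.7%, where 42% of all tested genes passed (21.7% higher and 20.3% lower). DESeq2 called 18 as well. Over both directions together the members' share was thus near that of the transcriptome. By direction fewer members rose than fell, whereas slightly more of all tested genes rose than fell. The members' median of -0.017 was small beside their range of -0.29 to 0.19. Libraries numbered 1 did not overlap the others for 12 members (4 higher and 8 lower), where 32.2% of tested genes did not overlap (16.7% higher and 15.5% lower). The sign was the same in all 3 groups for 31 members and for 65.1% of tested genes. The count was 12 without SM replicate 1 (7 higher and 5 lower) and 24 without SM replicate 2 (11 higher and 13 lower). The split by direction thus rested in part on SM replicates 1 and 2. With any other library left out, more members fell than rose.

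Among proteins near the peptidyl transferase center, MRPL16, which helps to position the incoming transfer RNA, fell. It had 52.5, 55.3 and 55.1 CPM in the libraries numbered 1 of SM, DSM and untreated cells, against 67.4, 66.4 and 67.1 CPM in those numbered 2 and 65.0, 60.8 and 63.6 CPM in those numbered 3. All 3 libraries numbered 1 lay below the other 6, whatever the drug, with a log2 fold change of -0.26 (SE 0.034, edgeR adjusted p = 1.4e-06). MRPL2, a core protein of the same center, fell to 58.8 ± 0.783 CPM in libraries numbered 1, against 68.2 ± 3.30 CPM in the others (SD, n = 3 and 6), by 0.21 on the log2 scale (edgeR adjusted p = 3.91e-05).

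Of the exit tunnel proteins, MRPL24 and MRPL4 fell and MRPL47 rose. MRPL24 had 29.9, 32.7 and 32.7 CPM in the libraries numbered 1 of SM, DSM and untreated cells, against 36.2 to 40.3 CPM in the other 6. The log2 fold change was -0.29 (SE 0.042, edgeR adjusted p = 6.47e-06), the largest of any member in size. MRPL47, a protein at the tunnel mouth, had 46.9, 46.9 and 48.3 CPM in the libraries numbered 1 and 39.6 to 43.2 CPM in the other 6. These sets did not overlap, with a log2 fold change of 0.19 (SE 0.034, edgeR adjusted p = 0.000109), and 9.05% of the MRPL47 exon length is shared with ACTL6A on the opposite strand. MRPL4 averaged 165 ± 3.36 CPM in libraries numbered 1 and 182 ± 5.35 CPM in the others (SD, n = 3 and 6), with an edgeR adjusted p of 0.000116. Of the MRPL4 exon length 13.8% is shared with AC011511.2 and 12.3% with AC011511.3, both on the opposite strand.

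The promoters of MRPL16 and MRPL47, the members with the smallest p in each direction of the replicate comparison, are printed 5′ to 3′ on the strand of each gene, 250 bases up to the base before the start. That of MRPL16 is chr11:59810779-59811028 and that of MRPL47 chr3:179604647-179604896, both on the minus strand of GRCh38.p14. Capitals mark the searched motifs, CCAAT on either strand in both and CCGGAAG in MRPL47.
MRPL16: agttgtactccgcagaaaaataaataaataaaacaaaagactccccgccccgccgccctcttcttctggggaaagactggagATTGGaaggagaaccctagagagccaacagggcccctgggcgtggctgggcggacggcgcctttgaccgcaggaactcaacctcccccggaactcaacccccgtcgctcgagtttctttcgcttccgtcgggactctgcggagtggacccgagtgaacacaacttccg
MRPL47: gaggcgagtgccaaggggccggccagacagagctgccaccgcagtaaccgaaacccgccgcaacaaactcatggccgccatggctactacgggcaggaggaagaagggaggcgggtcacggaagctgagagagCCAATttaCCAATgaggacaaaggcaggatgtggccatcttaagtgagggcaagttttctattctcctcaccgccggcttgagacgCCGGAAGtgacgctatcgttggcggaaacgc
MRPL16 holds a CCAAT box on the other strand 168 bases before the start and no ETS, NRF1 or YY1 core in the window. MRPL47 holds CCAAT boxes at 117 and 109 bases and its ETS core at 31 bases before the start. Among the 14 members called between replicate numbers whose promoter could be read, 5 held the ETS core, beside 14 of all 42.

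**Figure D4:**
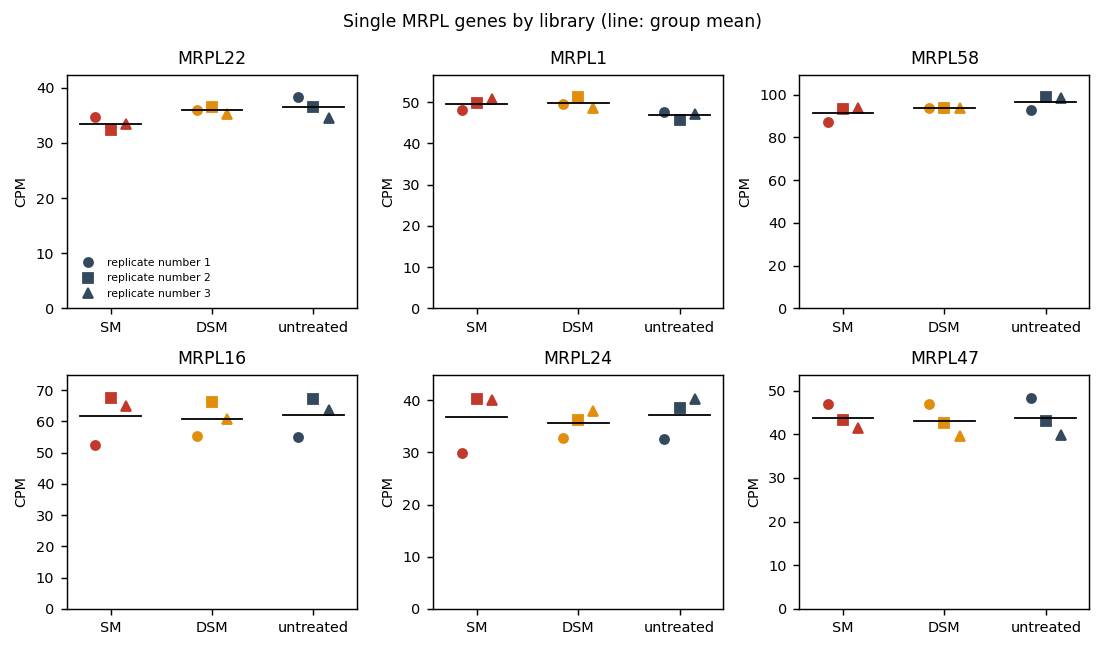
CPM of 6 MRPL genes in each library of SM, DSM and untreated cells, with marker shapes for the replicate number, lines at group means and axes from 0. MRPL22 is lowest in SM, MRPL1 is lowest in untreated cells and MRPL58 is highest in untreated cells by small margins, whereas in MRPL16 and MRPL24 the circles (number 1) lie below the other shapes and in MRPL47 above them.

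Other members that fell in the libraries numbered 1 were MRPL21, MRPL34, MRPL55, MRPL30, MRPL48, MRPL57, MRPL41, MRPL10 and MRPL38, by 0.078 (MRPL38) to 0.19 (MRPL55) on the log2 scale. Their edgeR adjusted p values ran from 0.00172 for MRPL21 to 0.0335 for MRPL38. MRPL52, MRPL53, MRPL44 and MRPL13 rose, with log2 fold changes of 0.15, 0.18, 0.14 and 0.13 and edgeR adjusted p values of 0.000607, 0.00246, 0.00533 and 0.00811. By site, 1 of 3 stalk proteins fell (MRPL10), as did 2 of 6 in the central protuberance (MRPL38 and MRPL48), and 0 of 2 at the interface passed. The call of MRPL10 was lost without SM replicate 1 or 3 or without untreated replicate 1 or 2. That of MRPL38 was lost without SM replicate 1 or 2, DSM replicate 1 or 3, or untreated replicate 1 or 3. Beside these counts stand the 42% of all tested genes that passed, 21.7% higher and 20.3% lower. Of the 28 members numbered up to 36, 1 rose and 8 fell, and of the 21 numbered from 37, 4 rose and 5 fell. The summed colon epithelium markers were 13537 to 14868 CPM in the libraries numbered 1 and 11296 to 12028 CPM in the other 6, with 7 of 9 tested markers higher and 1 lower. Fibroblast markers summed to 12.1 to 13.8 CPM against 7.49 to 10.3, leukocyte markers to 8.55 to 8.96 against 4.89 to 6.79, and endothelial markers to 4.02 to 4.42 against 1.83 to 2.82 CPM. In these 3 lists COL1A1, LYZ and VWF averaged 1 CPM or more, and the others (COL3A1, DCN, PTPRC, CD3E, KDR and CDH5 among them) less. Of 2 tested genes in each list, COL1A1, LYZ and both endothelial genes (PECAM1 and VWF) passed as higher in the libraries numbered 1, and 0 as lower. The part of these differences in the members' values was not tested.

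**Figure D5:**
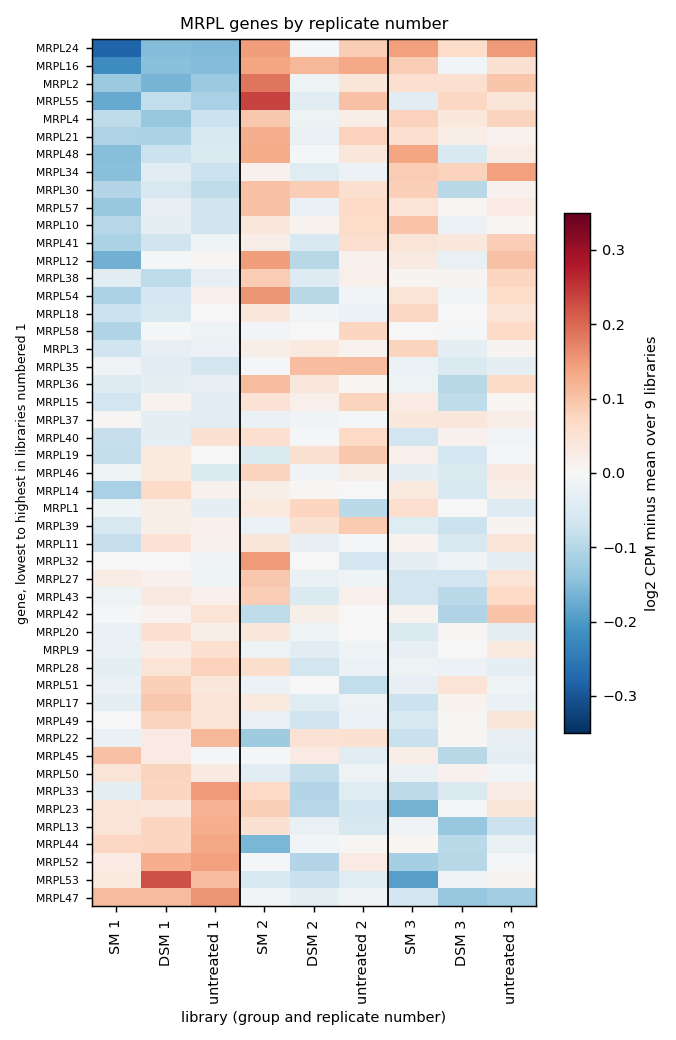
Log2 CPM of each MRPL gene minus its mean over the 9 libraries, with libraries in columns ordered by replicate number and then SM, DSM and untreated, and genes ordered by their level in the libraries numbered 1. MRPL24, MRPL16 and MRPL2 at the top are below their mean in all 3 libraries numbered 1, MRPL47 at the bottom is above it, and SM replicate 2 shows many positive values.

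Of 31 genes of the small subunit, 22 assembly factors of the large subunit and 14 tested translation factors, 0 passed for SM or for DSM against untreated cells in edgeR's test, with or without the block. Between SM and DSM 0 of 31 small subunit genes passed without the block. With it 1 of 31 passed, where 3.88% of all tested genes did. This was MRPS35, with 154 ± 0.855 CPM in SM and 141 ± 3.62 CPM in DSM (SD, n = 3), a log2 fold change of 0.13 (SE 0.032, edgeR adjusted p = 0.0232). The large subunit proteins that carry other names, MRPS18A, MRPS30 and GADD45GIP1, did not pass in any comparison. GADD45GIP1 averaged 120 ± 1.74 CPM in SM, 112 ± 2.96 CPM in DSM and 119 ± 3.84 CPM in untreated cells (SD, n = 3 each), and its SM against DSM value was 0.098 on the log2 scale (edgeR adjusted p = 0.128 with the block). Between replicate numbers, where 21.7% of all tested genes rose and 20.3% fell, 3 of 31 small subunit genes rose and 7 fell. Assembly factors fell in 11 of 22 cases and rose in 0, among them FASTKD2, an RNA-binding protein of the mitochondrial granules, with 27.5 ± 0.526 CPM in libraries numbered 1 and 31.4 ± 2.26 CPM in the others (SD, n = 3 and 6). Of 14 translation factors 2 rose and 5 fell, MTIF2, the initiation factor, to 91.2 ± 2.02 CPM in libraries numbered 1, against 104 ± 3.26 CPM in the others (SD, n = 3 and 6).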

How the data were processed

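Messenger RNA sequencing libraries (NuGEN Universal Plus mRNA-seq, per the labels' protocols) of 9 SW620 cultures were analysed. The authors deposited whole-number counts per gene, not normalized. The submitters' processing notes name cutadapt 3.4, TopHat2 2.1.1, featureCounts 2.0.0, DESeq2 1.26.0 and hg38. The annotation, strand setting and treatment of reads with several hits are not given in the sources used. Numbered pseudogenes are annotated for 19 members, and 20 share exon bases with another gene, so those counts are uncertain to that extent. The shared part is at least 10% of exon length for 11 members, and only some of these overlaps are named above. A second deposited table of normalized signal was not used.

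edgeR 4.0.16 (R 4.3.3) was run on the counts after filtering with filterByExpr, for which a minimum count of 10 and a minimum total of 15 were set, and scaling by TMM (factors 0.981 to 1.02). All 9 libraries entered 1 robust quasi-likelihood fit with group as its term, and two-sided F tests were adjusted by Benjamini-Hochberg over 15619 genes at 0.05. A standard error is the fold change divided by the square root of F. Log2 CPM used a prior count of 2. The module mean has no p. A departing member lies over 3 scaled median absolute deviations from the members' median in the blocked fit.

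Replicate numbers were taken to pair libraries from the data: all 9 correlations of deviations between same-numbered libraries lay between 0.227 and 0.582, against -0.404 to 0.161 for the 18 others. Every negative value involved a library numbered 1. Among libraries numbered 2 or 3 the gap was narrower, with 0.227 to 0.342 for the same number and 0.104 to 0.161 for different numbers. With so few cultures, p-values measure only the spread between these libraries. The members, the gene lists and the comparisons were chosen with earlier results of these data known. Named with values were members called, up to 10 per direction, or else the 3 with the smallest blocked p in each direction, departing members, the 5 most and 5 least abundant, and the site lists. Members whose groups did not overlap were also named, after their values were seen. The fits were tested on simulated counts. Alternatives were DESeq2 1.42.0, DESeq2 size factors, library totals, no filter, only the 2 groups compared, the block, and leaving out each library or those numbered 1.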

Additional observations from a re-analysis of the deposited data

How the results depend on the processing

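In the 3 drug comparisons the count of members called was 0 under every alternative run, from other scalings and DESeq2 to the replicate block and each library left out. The smallest edgeR adjusted p of a member was 0.0571, for SM against DSM with the block and without SM replicate 1. Genes called over the whole table moved. For SM against untreated cells the 3 genes became 5 with no filter, 14 with DESeq2, 0 with only the 2 groups compared and 0 to 3 with 1 library left out. The replicate block gave 428, with SM replicate 1, 2 or 3 left out 569, 406 or 268, with untreated replicate 1, 2 or 3 left out 187, 169 or 149, without the libraries numbered 1 308, and in DESeq2 385 (added after seeing the data). For DSM against untreated cells the 0 genes became 1 with the block and without the libraries numbered 1. For SM against DSM the 0 genes became 3 with no filter, 11 with DESeq2 and 606 with the block, and within the block 846, 407 or 326 with SM replicate 1, 2 or 3 left out, 584, 286 or 265 with DSM replicate 1, 2 or 3 left out, 627 without the libraries numbered 1 and 510 in DESeq2. The cause of these moves was not tested. The difference of the module mean between SM and DSM moved to 0.042 (from 0.0097) with the block and without the libraries numbered 1. MRPL32 with DSM against untreated cells turned to -0.0077 in the blocked fit without untreated replicate 2. Of the 18 members called between replicate numbers, MRPL10, MRPL13, MRPL30, MRPL34, MRPL38, MRPL41, MRPL48, MRPL53, MRPL55 and MRPL57 no longer passed under at least 1 alternative that left out a library or used replicate 2 or 3 alone. Between replicate numbers 18 members were called, 21 with library totals and 20 with no filter. The count was 12 to 24 with 1 library left out, 15 against number 2 alone and 14 against number 3 alone. With 3 cultures a group, the median half-width of a member's 95% interval for SM against untreated cells was 0.084 with the block and 0.126 without it. Changes smaller than this could mostly not be told from none. These intervals are not adjusted for the number of genes tested, so they understate the change needed for a call. In the blocked fit MRPL22 at -0.12 (edgeR adjusted p = 0.185) and MRPL52 at -0.086 (edgeR adjusted p = 0.275) had intervals that excluded 0, yet neither passed.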
